A study of Saccharomyces cerevisiae with 4 samples.

Results

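Of the 5449 tested Saccharomyces cerevisiae genes, 10 were chosen by name, the G1 cyclin genes CLN1, CLN2, CLN3 and PCL1 and the B-type cyclin genes CLB1 to CLB6. All 10 genes were found on the array, each through 1 probe set, and none of these probe sets carries the mark (s or x) of one that can bind several transcripts. Transcript levels were measured on 4 Affymetrix arrays of strain BY4741, a haploid of mating type a that lacks functional HIS3, LEU2, MET17 and URA3 in all cultures. The cultures grew in YPD, a rich glucose medium, and were then given 12 µg/mL of honokiol, a biphenol found in magnolia bark, for 2 h (2 arrays), or as much of the solvent ethanol with 0 µg/mL honokiol (2 arrays). The labels call the replicates biological, give an age of 8 h for all samples and name no synchronisation, so each array reads a mixed population. In such a population a change in the share of cells in a cycle phase and a change in transcript per cell cannot be told apart.

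Cyclins bind and activate the cyclin-dependent kinase Cdc28, and each phase of the budding yeast cycle has its own set. Cln3 acts early in G1 and turns on the transcription factors SBF and MBF, which in turn raise CLN1, CLN2, PCL1, CLB5, CLB6 and many genes for budding and DNA replication. Clb5 and Clb6 start DNA replication, Clb3 and Clb4 act in S phase and early mitosis, and Clb1 and Clb2, whose genes belong to a cluster read in G2 and mitosis, drive mitosis. Pcl1 is a G1 cyclin of a different kinase, Pho85.

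The strain and the arrays were checked first. URA3 lay at log2 intensity 2.73 and 3.10 with honokiol and 2.73 and 2.75 with ethanol, below the background level of 4.39, and LEU2 and MET17 lay between 4.28 and 4.56, near it. HIS3 read 10.70 to 11.05, but the HIS3 lesion of this strain removes only part of the gene, so this probe set checks nothing. The 5 markers of mating type a cells were bright, between 10.89 and 13.52. Of the 4 markers of mating type alpha cells, the pheromone gene MF(ALPHA)1 stayed below background at 3.27 to 3.83, while MF(ALPHA)2, STE3 and SAG1 read above it, up to 9.30. The summed linear intensity of these 4 was 943 and 954 with honokiol and 861 and 757 with ethanol, and 1 of them, STE3, was higher by limma (25.0%, against 23.9% of all tested genes). Of 6 genes of sporulating cells all read above background, between 5.43 and 8.05, with sums of 1019 and 940 with honokiol and 821 and 726 with ethanol, and 4 were higher by limma (66.7%, against 23.9% of all tested genes). The part of either marker list in the cyclin results was not tested. The mean log2 5'/3' signal ratio of 7 control transcripts, a measure of RNA and cRNA integrity, was -1.18 and -1.22 with honokiol, against -1.31 and -1.67 with ethanol. It thus moved with the groups, and ethanol replicate 2 stood lowest. With 4 arrays, a fit that takes this ratio as a covariate cannot cleanly separate it from the treatment. Of the 10 cyclin genes, 9 read lower on ethanol replicate 2 than on ethanol replicate 1, against 53.9% of all tested genes, with CLN1 as the exception.

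The comparison of honokiol with ethanol asked which cyclin transcripts change. The cyclins that passed the test went in both directions. PCL1, CLN2 and CLB5 rose 1.71-fold, 1.46-fold and 1.28-fold, while CLB1 fell to 0.529 of its ethanol level and CLN3 to 0.839 of it. CLN1, CLB2, CLB3, CLB4 and CLB6 did not pass the test, limma's moderated test with Benjamini-Hochberg adjustment over all 5449 genes at a threshold of 0.05. Thus 3 of 10 cyclin genes were higher and 2 lower, where 23.9% of all tested genes were higher, 25.0% lower and 48.9% either, so the number called is close to that of the whole array. The median log2 fold change was 0.12 over the 10 genes and 0.01 over all tested genes. It was also 0.01 over the 2264 tested genes whose length lay in the cyclins' range of 840 to 1743 bases. The cyclin median was not stable, at -0.07 with the 5'/3' signal ratio as a covariate and 0.02 with quantile normalization again. With 1 array left out it ran from -0.01 (without ethanol replicate 2) to 0.15 (without honokiol replicate 2).

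**Figure D1:**
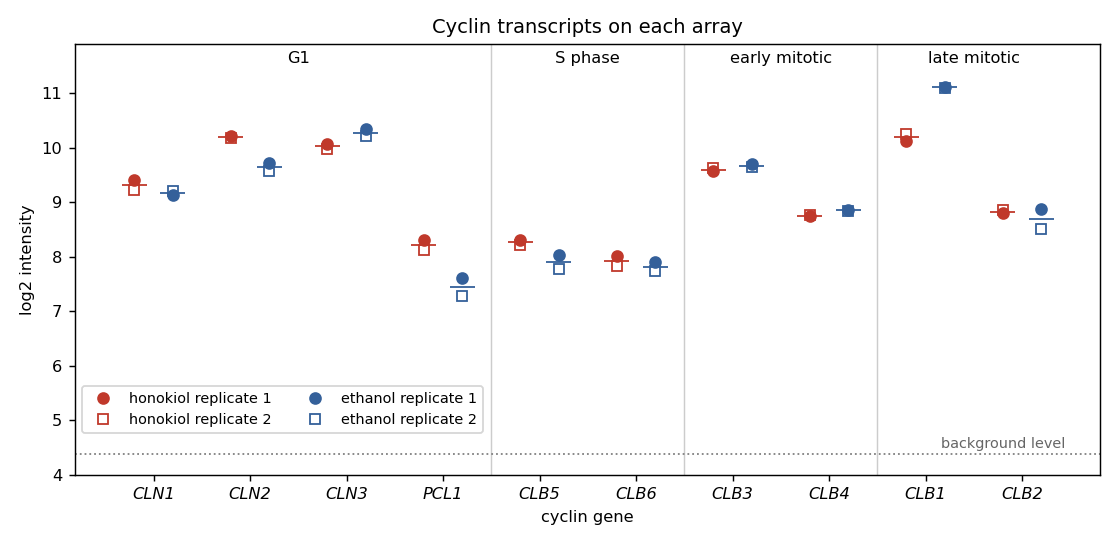
Log2 intensity (vertical axis) of each cyclin gene (horizontal axis, grouped by cycle phase) on the 2 honokiol arrays (red, left of each pair) and the 2 ethanol arrays (blue, right), with short lines at the group means and a dotted line at the background level of 4.39. The widest gaps between groups are those of CLB1, 10.13 and 10.25 with honokiol against 11.11 and 11.10 with ethanol, and of PCL1, 8.31 and 8.12 against 7.62 and 7.28.

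Among the G1 cyclins, CLN2 and PCL1 rose, CLN3 fell, and CLN1 did not pass. CLN2 encodes one of a pair of paralogous cyclins that trigger budding and the commitment to a new cycle. Its log2 intensity was 10.22 and 10.17 with honokiol and 9.72 and 9.57 with ethanol, so the groups lay apart by more than either pair differed. Its log2 fold change was 0.55 ± 0.08 (SE, n = 2 each; limma adjusted p = 0.00647). PCL1 read 8.31 and 8.12 with honokiol and 7.62 and 7.28 with ethanol, again without overlap. Its log2 fold change was 0.77 ± 0.14 (SE; limma adjusted p = 0.0116), higher than that of 93.4% of tested genes. Without honokiol replicate 1 or honokiol replicate 2, when the spread comes from the ethanol pair alone, neither passed, with adjusted p = 0.0662 and 0.0561 for CLN2 and 0.0839 and 0.0565 for PCL1. With the 5'/3' signal ratio as a covariate both passed, at a log2 fold change of 0.42 for CLN2 (adjusted p = 0.0195) and 0.49 for PCL1 (adjusted p = 0.0275).

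CLN1, the paralog of CLN2, read 9.41 and 9.22 with honokiol and 9.14 and 9.20 with ethanol. Both honokiol values lay above both ethanol values, as happened for 40.0% of all tested genes, but honokiol replicate 2 was nearly level with ethanol replicate 2. The log2 fold change was 0.15 ± 0.09 (SE), with a 95% interval from -0.08 to 0.37 (limma adjusted p = 0.219). CLN3, the upstream G1 cyclin that sets the timing of Start, read 10.07 and 9.98 with honokiol and 10.34 and 10.21 with ethanol. Both honokiol arrays were lower than both ethanol arrays, as for 40.2% of tested genes. Its log2 fold change of -0.25 ± 0.08 (SE; limma adjusted p = 0.048) just passed, and 49.9% of tested genes had a smaller absolute change. CLN3 did not pass without honokiol replicate 1, honokiol replicate 2 or ethanol replicate 1 (adjusted p = 0.148, 0.251 and 0.0859), nor with each array centred on its median (adjusted p = 0.0589).

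Of the S phase cyclins, CLB5 rose and CLB6 did not pass. CLB5, whose product fires origins of replication throughout S phase, read 8.30 and 8.22 with honokiol and 8.03 and 7.77 with ethanol. The groups did not overlap, but the ethanol arrays differed from each other by 0.26 on the log2 scale. The log2 fold change was 0.36 ± 0.10 (SE; limma adjusted p = 0.0434). It was 0.15 with the 5'/3' signal ratio as a covariate (adjusted p = 0.203) and 0.23 without ethanol replicate 2 (adjusted p = 0.0546), each time no longer past the threshold. The call was also lost without honokiol replicate 1 or honokiol replicate 2 (adjusted p = 0.213 and 0.14). CLB6, which acts on early origins, read 8.01 and 7.83 with honokiol and 7.89 and 7.74 with ethanol, and the groups overlapped. Its log2 fold change was 0.11 ± 0.10 (SE), with a 95% interval from -0.14 to 0.36 (adjusted p = 0.385).

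Of the 4 mitotic cyclins CLB1 fell and the others did not pass, and 25.0% lower is also the share of all tested genes. CLB1 had the largest absolute fold change of the 10 cyclin genes. It read 10.13 and 10.25 with honokiol and 11.11 and 11.10 with ethanol, so that the gap between groups was many times the difference within either pair. Its log2 fold change was -0.92 ± 0.07 (SE; limma adjusted p = 0.00171), with a 95% interval from -1.10 to -0.74. Only 1.28% of tested genes had a lower fold change. CLB1 kept its direction and its call in all 14 alternatives, though several of these cannot move the fold change of a gene with 1 probe set. Its log2 fold changes ran from -0.98 to -0.86, with -0.92 in the fit with the 5'/3' signal ratio as a covariate.

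CLB2, the paralog of CLB1 and the main mitotic cyclin, read 8.80 and 8.85 with honokiol and 8.88 and 8.51 with ethanol. Ethanol replicate 1 was the highest of the 4 arrays and ethanol replicate 2 the lowest, so the groups overlapped. The log2 fold change was 0.13 ± 0.13 (SE), with a 95% interval from -0.22 to 0.48 (limma adjusted p = 0.454). Which way it pointed depended on the ethanol array kept, with 0.31 (adjusted p = 0.0139) without ethanol replicate 1 and -0.06 (adjusted p = 0.533) without ethanol replicate 2. The early mitotic cyclins gave narrow intervals near no change. CLB3 read 9.57 and 9.62 with honokiol and 9.70 and 9.64 with ethanol, a log2 fold change of -0.07 ± 0.06 (SE; 95% interval from -0.24 to 0.09; adjusted p = 0.361). CLB4, its paralog, read 8.74 and 8.77 with honokiol and 8.86 and 8.84 with ethanol, a log2 fold change of -0.09 ± 0.06 (SE; 95% interval from -0.24 to 0.06; adjusted p = 0.227). For both, the honokiol arrays lay below the ethanol arrays, but neither gene passed. In all, 8 of the 10 cyclin genes had groups without overlap, against 80.2% of all tested genes.

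**Figure D2:**
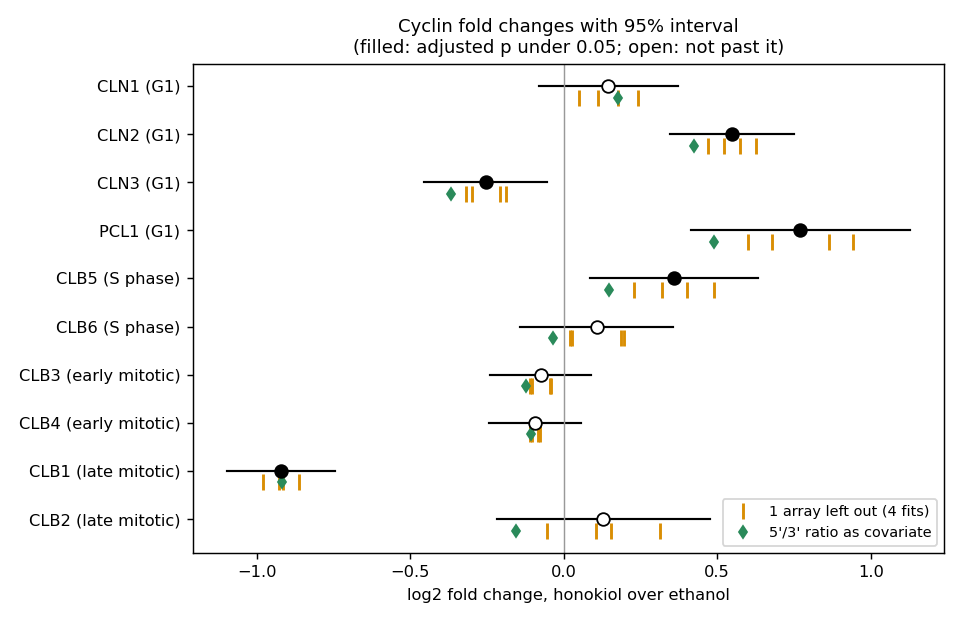
Log2 fold change, honokiol over ethanol (horizontal axis), of each cyclin gene with its 95% interval (black), the fits with 1 array left out (orange ticks) and the fit adjusted for the 5'/3' signal ratio (green). In these refits the estimate of CLB1 stays between -0.98 and -0.86, those of PCL1 and CLN2 stay above 0, and those of CLB2 and CLB6 cross 0. The 95% interval of CLB1 runs from -1.10 to -0.74, and those of CLN1, CLB2, CLB3, CLB4 and CLB6 include 0.

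The cyclin genes other than CLN3 and PCL1 form 4 paralogous pairs, and the 2 genes of each pair were set against each other within each array. Since different probe sets have different brightness, only the change of this difference between groups is informative. The log2 difference CLB1 minus CLB2 was 1.33 and 1.40 with honokiol and 2.23 and 2.59 with ethanol, a change of -1.05, with SDs of 0.05 in honokiol and 0.25 in ethanol (n = 2 each). CLN1 minus CLN2 was -0.81 and -0.95 with honokiol and -0.59 and -0.37 with ethanol, a change of -0.40, with SDs of 0.10 in honokiol and 0.16 in ethanol. CLB5 minus CLB6 was 0.29 and 0.39 with honokiol and 0.14 and 0.04 with ethanol, a change of 0.25, with an SD of 0.07 in honokiol and 0.07 in ethanol. In these 3 pairs the honokiol and ethanol arrays did not overlap, as was also so for 80.2% of all tested genes taken singly. The share over other pairs of genes was not measured. CLB3 minus CLB4 was 0.83 and 0.85 with honokiol and 0.85 and 0.80 with ethanol, a change of 0.02 with overlapping groups. The pairs are given as values, because with 2 arrays against 2 the exact two-sided permutation test cannot go below p = 0.333 and so bears neither way on whether paralogs differ in response.

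**Figure D3:**
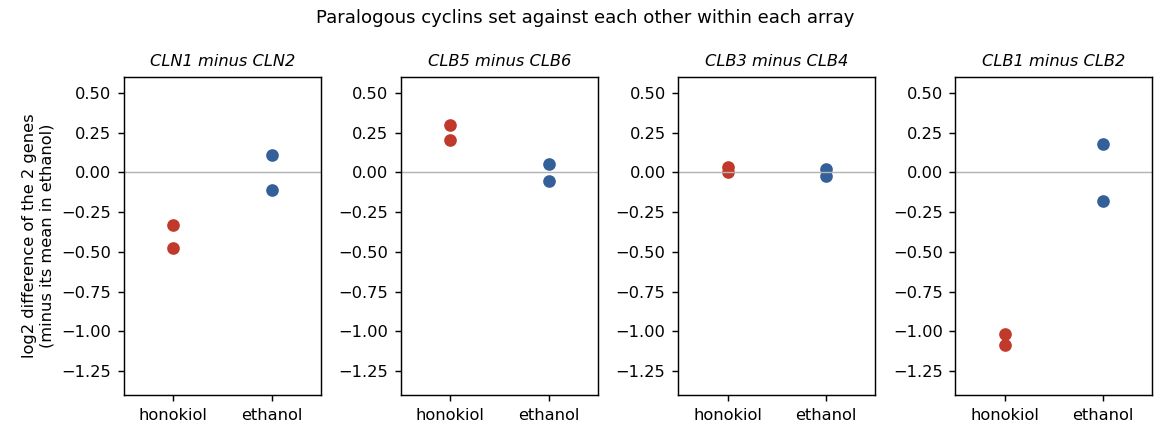
Log2 difference between the 2 genes of each paralogous pair on each array, minus its mean in ethanol (vertical axis), for the honokiol arrays (red, left) and the ethanol arrays (blue, right). The CLB1 and CLB2 pair shows the widest separation, a change of -1.05, and the CLB3 and CLB4 pair almost none, 0.02.

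The genes of 4 B-type cyclins also lie side by side, CLB1 with CLB6 on chromosome VII and CLB2 with CLB5 on chromosome XVI, in the RefSeq gene table of assembly R64. Each adjacent pair joins a mitotic cyclin with an S phase cyclin. In the first, CLB1 had a log2 fold change of -0.92 and CLB6 of 0.11, and in the second, CLB2 had 0.13 and CLB5 0.36. Of the 16 other protein-coding genes next to a cyclin gene 1 was higher and 2 lower by limma, 18.8% called against 48.9% of all tested genes, so most neighbours did not pass. MRI1, next to CLB2, encodes an enzyme of methionine salvage and had a log2 fold change of 0.36 (adjusted p = 0.0115). CDC24, next to CLN3, encodes the exchange factor that activates Cdc42 for bud growth and had -0.46 (adjusted p = 0.00717). CIK1, next to CLN1, encodes a partner of the kinesin Kar3 and had -0.67 (adjusted p = 0.00717).

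The rest of the cyclin machinery was read through 8 lists of cell cycle genes, 103 genes in all, of which 101 were analysed here and 6 stand in more than 1 list. Of these 101 genes 30 were higher (29.7%) and 23 lower (22.8%) by limma, near the 23.9% and 25.0% of all tested genes. The lists closest to the kinase were mixed. In the list of Cdc28 and Pho85 and their regulators 3 of 10 genes rose and 1 fell (median log2 fold change 0.02), 30.0% and 10.0% against 23.9% and 25.0% of all tested genes. CKS1, HSL1 and HSL7 each lost their call without honokiol replicate 1 or honokiol replicate 2, and the list median was then 0.03 or 0.001. CKS1, the small subunit that binds Cdc28 and its substrates, rose 1.57-fold (adjusted p = 0.00528). HSL7 and HSL1, which act together to bring down the Cdc28-inhibiting kinase Swe1, rose 1.30-fold and 1.29-fold (adjusted p = 0.00898 and 0.0138). FAR1, an inhibitor of Cln-Cdc28 in the pheromone response, had a log2 fold change of -0.96 (adjusted p = 0.00177), with 9.94 and 9.83 under honokiol and 10.89 and 10.80 under ethanol. CDC28 itself had a log2 fold change of -0.11 (adjusted p = 0.199) and PHO85 of -0.02 (adjusted p = 0.774); these 2 kinase genes are named here after their values were seen.

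Regulators of G1 transcription were mixed as well, with 2 of 11 genes higher and 3 lower (median -0.15). These shares, 18.2% and 27.3%, are near the 23.9% and 25.0% of all tested genes. With quantile normalization again 2 of the 11 rose and 5 fell, where 1278 of all tested genes rose and 1449 fell. With the 5'/3' signal ratio as a covariate 0 rose and 2 fell, against 931 and 936 of all tested genes. MSA1, which binds SBF and MBF and helps to time G1 transcription, had a log2 fold change of -0.81 (adjusted p = 0.00175). WHI5, the repressor of SBF that Cln-Cdc28 removes, had one of -0.56 (adjusted p = 0.0157), and MBP1, the DNA-binding subunit of MBF, had one of -0.44 (adjusted p = 0.0329). XBP1, a stress-induced repressor, rose 1.46-fold (adjusted p = 0.0137). The next list held 9 analysed transcription factors of G2/M and M/G1. Here 4 were higher and 1 lower at an unadjusted limma p under 0.05, against 1534 and 1588 of all 5449 tested genes. By the adjusted p 2 rose and 0 fell (median 0.29), and the 22.2% that rose is near the 23.9% of all tested genes. They were YHP1, a homeobox repressor that acts in M/G1 (1.29-fold, adjusted p = 0.0346), and FKH1, a forkhead factor (1.27-fold, adjusted p = 0.0127). The count was unstable. With the 5'/3' signal ratio as a covariate 0 of the 9 rose and 1 fell, against the 931 and 936 of all tested genes. An intensity trend in the moderation gave 5 higher and 1 lower, against 1439 and 1509. The replicate block gave 4 higher and 1 lower, against 1414 and 1395. With all probe sets as features 1 rose, against 832. The list median was 0.09 with the 5'/3' signal ratio as a covariate, 0.27 without honokiol replicate 1 and 0.34 without honokiol replicate 2. It was 0.38 without ethanol replicate 1 and 0.16 without ethanol replicate 2.

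Genes for cyclin destruction that passed were all lower with honokiol. In this list, the SCF and APC/C ubiquitin ligases and their adaptors, 7 of 14 genes fell and 0 rose by limma (median -0.29). Of all tested genes 25.0% were lower. At an unadjusted limma p under 0.05, 8 of the 14 fell and 1 rose, where 1588 of all 5449 tested genes fell and 1534 rose. CDC53, the cullin of SCF, had a log2 fold change of -0.66 (adjusted p = 0.0173) and CDC20, which directs the APC/C to its mitotic targets, had one of -0.44 (adjusted p = 0.0101). APC1, a scaffold subunit of the APC/C, had -0.41 (adjusted p = 0.0311), and GRR1, the F-box protein that marks Cln1 and Cln2, had -0.40 (adjusted p = 0.0433). With the 5'/3' signal ratio as a covariate 2 of the 14 fell, against 936 of all 5449 tested genes. The list median was then -0.15. The calls were lost without honokiol replicate 1 or honokiol replicate 2, with list medians of -0.25 and -0.31. Ethanol replicate 1 read above ethanol replicate 2 for 2 of the 14 genes (14.3%), against 53.9% of all tested genes. The list median was -0.39 without ethanol replicate 1 and -0.19 without ethanol replicate 2.

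The other cyclins, those of Pho85 and of the transcription kinases, gave 2 higher and 2 lower of 13 (median 0.06), 15.4% each way, below the 23.9% and 25.0% of all tested genes. PCL5, a Pho85 cyclin that promotes the breakdown of Gcn4, rose 1.53-fold (adjusted p = 0.00256), at 11.38 and 11.37 with honokiol and 10.76 and 10.76 with ethanol. PHO80, the Pho85 cyclin of the phosphate response, rose 1.21-fold (adjusted p = 0.0389). PCL2, a G1 cyclin related to PCL1, fell, with a log2 fold change of -0.33 (adjusted p = 0.0489), as did PCL6, a Pho85 cyclin linked to glycogen metabolism, with -0.32 (adjusted p = 0.0179). The call of PCL2 held in 8 of 14 alternatives and that of PHO80 in 9.

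In the lists of target genes most calls went 1 way. Of 20 analysed targets of SBF and MBF 13 rose and 1 fell, 65.0% higher against 23.9% of all tested genes (median log2 fold change 0.38). HO, the mating type switching endonuclease, which is not functional in this strain, rose 2.19-fold (adjusted p = 0.0017). RNR1, the large subunit of ribonucleotide reductase, rose 2.09-fold (adjusted p = 0.00263), RAD27, a flap endonuclease of DNA replication, 1.89-fold (adjusted p = 0.00316) and TOS4, a forkhead-domain protein of G1/S, 1.61-fold (adjusted p = 0.0073). Of 14 analysed targets in the CLB2 cluster 9 fell and 0 rose by limma, 64.3% lower against 25.0% of all tested genes. At an unadjusted limma p under 0.05, 10 fell and 0 rose, where 1588 of all 5449 tested genes fell and 1534 rose. All 14 fold changes were below 0, with a median of -0.45. Ethanol replicate 1 read above ethanol replicate 2 for 3 of the 14 (21.4%), against 53.9% of all tested genes. The median was -0.52 without ethanol replicate 1, -0.38 without ethanol replicate 2 and -0.35 with the 5'/3' signal ratio as a covariate. BUD4, a bud neck protein, and KIN3, a NIMA-family kinase, each had a log2 fold change of -0.73 (adjusted p = 0.00365 and 0.00491). IRC8 had -0.70 and ALK1, a haspin-type kinase, -0.63 (adjusted p = 0.00245 and 0.00726).

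Of 15 M/G1 genes 8 rose and 1 fell, 53.3% higher against 23.9% of all tested genes (median 0.29). The cell separation and cell wall genes SCW11 (1.92-fold, adjusted p = 0.00212), DSE4 (1.88-fold, adjusted p = 0.00593) and PRY3 (1.86-fold, adjusted p = 0.00153) were among those that rose. TEC1, a transcription factor of filamentous growth, was the gene that fell, with a log2 fold change of -1.25 (adjusted p = 0.00132). With the 5'/3' signal ratio as a covariate 10 SBF and MBF targets and 6 M/G1 genes rose, and 9 CLB2 cluster genes fell. Without honokiol replicate 1 or honokiol replicate 2 fewer genes of each of these lists passed, as over all tested genes. The list medians then stayed on the same side of 0. They were 0.35 or 0.36 for the SBF and MBF targets, 0.27 or 0.29 for M/G1 genes and -0.41 or -0.49 for the CLB2 cluster. Over all 8 lists, 12 of the 30 named genes kept their call in every alternative, namely FAR1, MSA1, PCL5, HO, RNR1, RAD27, BUD4, KIN3, IRC8, SCW11, PRY3 and TEC1. With the 5'/3' signal ratio in the fit the calls of 8 others were lost, those of MBP1, XBP1, FKH1, YHP1, APC1, GRR1, PCL6 and PHO80. These lists were described by counts and medians alone, and whether they differ from other genes was not tested.

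**Figure D4:**
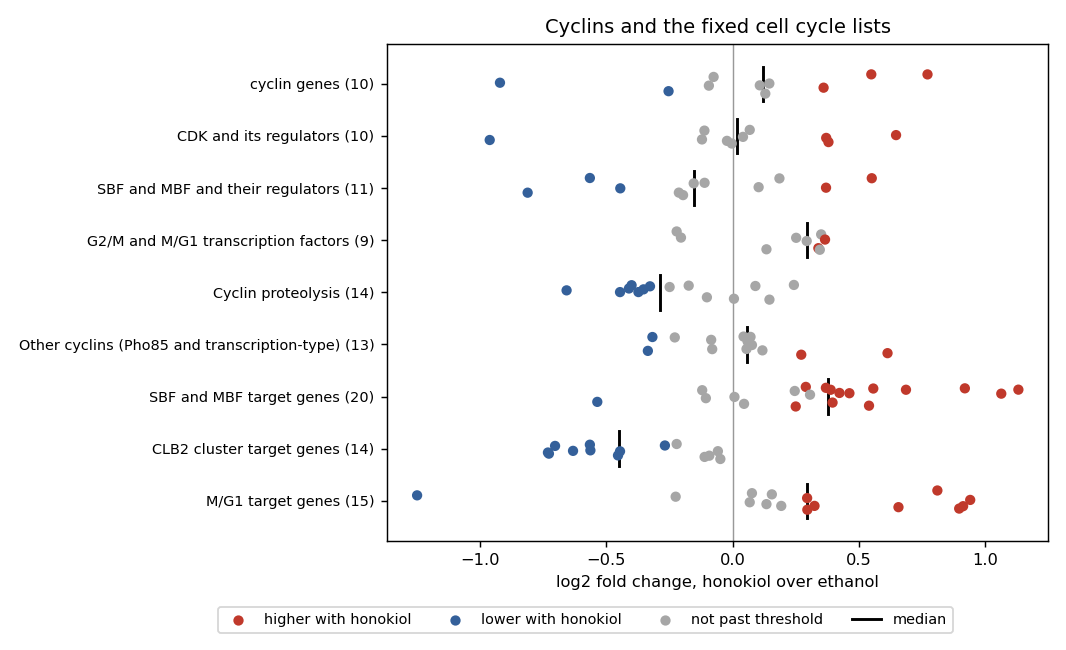
Log2 fold change, honokiol over ethanol (horizontal axis), of every analysed gene in the cyclin set and in 8 cell cycle lists (number of genes in brackets), coloured by the limma call, with black bars at the medians. The SBF and MBF targets lie mostly to the right, with a median of 0.38, and the CLB2 cluster genes all lie to the left of 0, with a median of -0.45.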

How the data were processed

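The deposited table gives an intensity for each probe set on each array, which the authors derived with RMA, per the submitters' processing notes, and left on a linear scale. No RMA version is given in the sources used here. RMA corrects background, normalizes by quantiles and summarises probes, and compresses changes of dim probe sets. The number of arrays limits the precision. Log2 was taken with no pseudocount. Names came from the platform annotation, matched to the RefSeq gene table (R64): 5498 of 10928 named 1 S. cerevisiae gene, and each of 5449 genes was read through its brightest probe set. Background was the 95th percentile of probe sets for genes outside that table. The 2 groups were compared by limma 3.58.1 under R 4.3.3, two-sided, adjusting by Benjamini-Hochberg over all genes, after a check on simulated data. Exact permutation tests used scipy 1.17.1. Groups came from the sample titles; p-values measure the spread between these arrays. Members, lists and tests were chosen with earlier results of these data known. Named list genes were up to 4 per list past the threshold with the largest absolute change, or the largest where none passed. Alternatives covered normalization, filters, probe set rules, moderation, a pseudocount of 16, the 5'/3' ratio, a replicate block and leaving out each array. The 2 list genes without a named probe set here were not analysed.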

Additional observations from a re-analysis of the deposited data

How the results depend on the processing

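Of 14 alternatives, CLB1 kept its call in 14, CLN2 and PCL1 in 12 each, and CLN3 and CLB5 in 8 each, while CLB2 passed in 1 and CLN1, CLB3, CLB4 and CLB6 in 0. Each cyclin gene has 1 unmarked probe set above background. The probe set rules and the background filter therefore return its main fold change by design. The intensity trend, the replicate block and all probe sets as features can change only its standard error and adjusted p. These alternatives say little about how stable a fold change is. The number of cyclin genes past the threshold (5) was 3 with quantile normalization again and 3 with all probe sets as features, and ran from 1 to 5 with 1 array left out. With all probe sets as features 1611 genes passed (832 higher, 779 lower) in place of 2663, and 34 of the listed cell cycle genes in place of 53. With 1 array left out these counts ran from 705 to 3190 and from 13 to 64, lowest without either honokiol array, when fewer samples remain and the ethanol pair alone gives the spread. The log2 fold change of CLN3 was -0.22 with quantile normalization again, -0.25 with each array centred and -0.25 with all probe sets (adjusted p = 0.069, 0.0589 and 0.126). That of CLB5 was 0.24 with quantile normalization again, 0.36 with all probe sets and 0.15 with the 5'/3' ratio (adjusted p = 0.0576, 0.106 and 0.203). CLB6 turned to -0.0382 with quantile normalization again and -0.0343 with the 5'/3' ratio, and CLB2 to -0.15 with the 5'/3' ratio and -0.0559 without ethanol replicate 2; the cause was not tested. With 1 array left out, log2 fold changes ran from 0.47 to 0.63 for CLN2, 0.60 to 0.94 for PCL1, -0.32 to -0.19 for CLN3, 0.23 to 0.49 for CLB5 and -0.0559 to 0.31 for CLB2. The change of CLB3 minus CLB4 was 0.0672 with quantile normalization again, against 0.0187; leaving arrays out of these pair differences was chosen after seeing the data. The labels tie no replicate numbers to a shared batch. The differences between replicates 1 and 2 correlated at 0.33 between groups over genes, and with the replicate block 2809 genes and 5 cyclin genes passed.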

Other observations

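Markers of mating type a cells and of sporulating cells, used to check the strain, also held genes that passed the test. Of the 5 a cell genes 4 fell and 0 rose by limma, 80.0% lower against 25.0% of all tested genes. The counts at an unadjusted limma p under 0.05 were the same, where 1588 of all 5449 tested genes fell and 1534 rose. BAR1, the protease that degrades alpha factor, had a log2 fold change of -1.15 (adjusted p = 0.00132), the pheromone gene MFA1 of -0.69 (adjusted p = 0.00308), the pheromone exporter STE6 of -0.48 (adjusted p = 0.00503) and the receptor STE2 of -0.42 (adjusted p = 0.00598). The summed intensity of the 5 genes was 26155 and 26000 with honokiol and 37996 and 36015 with ethanol. Of the 6 sporulation genes 4 rose and 0 fell by limma, 66.7% higher against 23.9% of all tested genes. At an unadjusted limma p under 0.05 the counts were again 4 and 0, against 1534 and 1588 of all 5449 tested genes. The kinase gene SPS1 had a log2 fold change of 1.36 (adjusted p = 0.00377), read at 7.08 and 6.88 with honokiol and 5.81 and 5.43 with ethanol. All of these genes are named here after their values were seen.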
